A study of Homo sapiens with 10 samples.

Results

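The collagen genes are the protein-coding genes whose symbol is built from COL, a type number, the letter A and a chain number. Of the 58302 genes listed by Ensembl identifier in the tables, 44 met this rule. They were sorted by textbook class into 11 fibrillar, 6 basement membrane, 5 beaded filament, 3 short-chain network, 1 anchoring fibril, 10 fibril-associated (FACIT), 2 multiplexin, 4 transmembrane and 2 unclassed chains.

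Collagens are secreted or membrane-bound matrix proteins whose chains wind around each other into a helix, and many types are built from chains of different genes. Fibrillar collagens such as types I, II, III and V form the fibres of connective tissue, type IV forms the sheet of basement membranes, and type VI forms beaded filaments that link cells to the surrounding matrix. In the liver, most fibrillar collagen is made by stellate cells and fibroblasts rather than by hepatocytes.

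RNA-Seq had been done on 10 libraries from 3 lines that the labels call human hepatocellular carcinoma, with 1 library for each condition. SK-Hep1 cells were a mock control or overexpressed PSPC1 (paraspeckle component 1, an RNA-binding protein), PSPC1 together with the tyrosine kinase PTK6, the Y523F mutant of PSPC1 (tyrosine replaced by phenylalanine), or that mutant together with PTK6. Mahlavu cells were a mock control or carried the C-terminal part of PSPC1 (PSPC1-CT131) or the same part with a mutated nuclear localization sequence (Mut-NLS-CT131), and Huh-7 cells were left untreated or given 10 ng/ml of HGF (hepatocyte growth factor) for 48 h. The constructs were expressed from transfected plasmids, and whether the sequenced transfectants were pools or single clones is not given in the sources used here.

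With 1 library per condition there is no replicate error, no test was run, and every difference below lies between individual libraries. Levels are FPKM (reads divided by gene length and library size) after quantile normalization, which was run once on the 8 libraries of SK-Hep1 and Mahlavu and once on the Huh-7 pair. Huh-7 levels are therefore on a separate scale, and no fold change was computed between Huh-7 and the other lines. Fold changes are ratios of these values after adding 1, which makes them smaller for low genes. They were computed where the compared libraries averaged 1 FPKM or more, and a gene was counted as different from 2-fold on. A gene below 1 FPKM in 1 library can thus enter through the other. The shares over all genes used the same filter. Values are given in a fixed order: SK-Hep1 mock, PSPC1 alone, PSPC1 with PTK6, Y523F alone and Y523F with PTK6, then Mahlavu mock, PSPC1-CT131 and Mut-NLS-CT131, then untreated and HGF-treated Huh-7.

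The libraries held between 15245935 and 24278662 reads on genes. PSPC1 itself had 0, 209, 930, 71 and 2539 reads in the SK-Hep1 libraries, so its order did not follow the presence of a construct alone, and it had 1582, 899 and 632 reads in the Mahlavu libraries, where neither library labelled with a construct was above the mock. PTK6 had 277, 307, 1060, 230 and 679 reads in SK-Hep1, where both libraries with PTK6 were above the other 3. The Mahlavu conditions are therefore named below as their libraries are labelled. Of 10 hepatocyte markers, all were at 1 FPKM or more in both Huh-7 libraries, with a summed level of 29509 to 29563 FPKM. In each of the SK-Hep1 and Mahlavu libraries 1 of 10, SERPINA1, reached that level, the sum was 5.70 to 41.9 FPKM, and ALB, TTR, TF, FGB and APOH had 0 reads. Of 8 endothelial markers none reached 1 FPKM in SK-Hep1 or Mahlavu and 1 to 2 did in Huh-7. Of 8 fibroblast or stellate cell markers, 3 did in SK-Hep1 (summed level 40.1 to 92.3 FPKM), 1 to 4 in Mahlavu (7.33 to 14.8) and 4 in Huh-7 (17.9 to 20.7). In SK-Hep1 these were PDGFRB at 20.2 to 47.5 FPKM, THY1 at 13.3 to 40.3 and ACTA2 at 2.21 to 3.91. In Huh-7 they were PDGFRB, PDGFRA, LUM and RGS5, and PDGFRB was above 1 FPKM in each Mahlavu library too. DCN had no more than 1 read in any library. Against the SK-Hep1 mock, 1 of 3 tested fibroblast or stellate markers (THY1) was at least 2-fold higher with Y523F and PTK6 (all genes 3.44%). With PSPC1, with PSPC1 and PTK6 and with Y523F, 0 of 3 differed (all genes 5.58%, 8.41% and 5.29%). The part of these markers in the collagen levels was not tested, and in bulk RNA fewer cells of a kind and less RNA per cell cannot be told apart.

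RefSeq promoters on GRCh38.p14 were matched for 32 of the 44 genes. The bases before the start, up to 250 and without those in annotated exons, are shown for 3 genes that differed in several comparisons below: COL6A2 (chr21:46097862-46098096, plus strand), COL5A1 (chr9:134641553-134641773, plus strand) and COL12A1 (chr6:75206054-75206303, minus strand). Capitals mark the GC box (GGGCGG or its reverse complement), the TATA box (TATAAA) and the CCAAT box (CCAAT), each searched on both strands.
COL6A2: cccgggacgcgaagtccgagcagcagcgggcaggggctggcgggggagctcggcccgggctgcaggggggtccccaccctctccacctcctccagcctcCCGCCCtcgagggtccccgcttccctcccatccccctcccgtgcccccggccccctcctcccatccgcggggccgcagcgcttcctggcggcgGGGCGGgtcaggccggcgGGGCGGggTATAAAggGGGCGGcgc
COL5A1: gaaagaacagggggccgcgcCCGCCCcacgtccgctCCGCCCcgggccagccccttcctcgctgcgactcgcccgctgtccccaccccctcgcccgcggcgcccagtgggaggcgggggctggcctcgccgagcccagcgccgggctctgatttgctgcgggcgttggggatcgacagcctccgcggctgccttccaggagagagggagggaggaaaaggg
COL12A1: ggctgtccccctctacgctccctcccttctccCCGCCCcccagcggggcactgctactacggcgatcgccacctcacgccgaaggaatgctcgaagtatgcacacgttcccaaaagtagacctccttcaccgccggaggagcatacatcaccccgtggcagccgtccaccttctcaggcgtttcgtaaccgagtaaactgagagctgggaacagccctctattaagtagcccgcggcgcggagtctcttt
The COL6A2 stretch held 4 GC boxes and 1 TATA box, with 79.6% GC. The COL5A1 stretch held 2 GC boxes with 75.6% GC, and the COL12A1 stretch held 1 GC box with 61.2% GC. Over 35097 promoters of 250 bases, 42.6% held a GC box, 32.0% a CCAAT box and 10.7% a TATA box, and among the 32 collagen genes 18, 9 and 5 did. The median GC content was 65.2% for the collagen promoters and 58% for all promoters.

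Collagen reads made up a larger share of the Mahlavu libraries than of the others. They took 0.165% of reads in SK-Hep1 mock and 0.209% to 0.296% in the SK-Hep1 transfectants, 0.538% in Mahlavu mock, 0.995% in the library labelled PSPC1-CT131 and 0.734% in that labelled Mut-NLS-CT131, and 0.207% and 0.205% in untreated and HGF-treated Huh-7. Of the 44 genes, 29 reached 1 FPKM in at least 1 library, 5 did so in every library, and 15 in none. The 15 were led by COL11A2 at 0.99 FPKM, and COL25A1 had no reads in any library. By line, 21 genes reached 1 FPKM in some SK-Hep1 library, 18 in some Mahlavu library and 18 in some Huh-7 library.

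The collagen genes of highest level were not the same in the 3 lines. In SK-Hep1 mock the 3 highest genes were COL4A2, COL3A1 and COL18A1, which gave 60.8% of the summed collagen FPKM. In Mahlavu mock they were COL6A1, COL4A2 and COL6A2, with 75.2%, and in untreated Huh-7 COL2A1, COL1A2 and COL5A2, with 49.7%. Such an order between genes depends on the length by which reads were divided. The deposited FPKM of 42 collagen genes imply 1 length per gene, which equals the listed gene length for 1 of them, COL4A4, and is shorter for the others, by up to 5.84-fold. On the listed length the highest genes were COL4A2, COL3A1 and COL6A2 in SK-Hep1 mock, COL6A2, COL6A1 and COL4A2 in Mahlavu mock and COL5A2, COL2A1 and COL1A2 in untreated Huh-7. Fold changes of 1 gene between libraries depend on its length only through the added 1 and the quantile step.

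Type VI collagen is assembled from the chains of COL6A1, COL6A2 and COL6A3, and its chains did not move together in SK-Hep1. COL6A1 (21:45981737-46005050 as the tables list it) stood at 22.7, 11.3, 63.4, 7.59 and 23.0 FPKM in the SK-Hep1 libraries. Its highest value was in the library with PSPC1 and PTK6 and its lowest in that with Y523F alone. COL6A2 (21:46098097-46132849), which lies 93046 bases further along the same strand, stood at 66.5, 67.9, 158, 41.5 and 96.1 FPKM and had its highest and lowest values in the same libraries. COL6A3 (2:237324003-237414375), which encodes the long chain of type VI, stood at 5.60, 16.6, 0.32, 51.5 and 1.46 FPKM, from 522, 1497, 42, 5207 and 125 reads. It was highest in the library where COL6A1 and COL6A2 were lowest, and lowest where they were highest.

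The opposite placing was present with both forms of PSPC1, in contrasts that share no library. The libraries with PTK6 also held more PSPC1 reads, 930 against 209 with PSPC1 and 2539 against 71 with Y523F. PTK6 and the level of PSPC1 therefore cannot be told apart in these contrasts, here and below. With PTK6 added to PSPC1, COL6A1 was 5.22-fold and COL6A2 2.31-fold higher, and COL6A3 was 13.4-fold lower. Adding PTK6 to Y523F left COL6A1 2.79-fold and COL6A2 2.29-fold higher and COL6A3 21.3-fold lower. On the reads alone, the 95% exact interval of the log2 ratio for COL6A3 was -5.87 to -4.95 in the first contrast and -5.85 to -5.33 in the second, which covers counting error only. These intervals are of read ratios and do not include the folds above, which were taken after normalization and adding 1. Of 18 collagen genes tested in both contrasts, 2 were at least 2-fold higher in both, against 1.02% of 11931 genes, and 1 was at least 2-fold lower in both, against 0.36%. Across all genes, log2 changes with PTK6 added to PSPC1 were correlated with transcript GC content at a Spearman's rho of -0.31, a description over 12380 genes that share both libraries, and with PTK6 added to Y523F at -0.02. In the same contrasts 0 of 3 and 2 of 3 tested fibroblast or stellate markers were higher (all genes 3.09% and 3.78%). The 2 markers were PDGFRB and THY1, and their part was not tested. The longest transcripts of COL6A1, COL6A2 and COL6A3 have 63.5%, 66.4% and 53.2% GC. With GC content and length taken out, their log2 changes were 2.52, 1.32 and -3.51 with PTK6 added to PSPC1 and 1.41, 1.05 and -4.23 with PTK6 added to Y523F.

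The type VI chains had other proportions in the remaining lines. In Mahlavu COL6A1 reached 769, 2114 and 1786 FPKM and COL6A2 643, 1683 and 1258 FPKM, while COL6A3 stayed at 3.34, 16.1 and 3.52 FPKM. COL6A1 and COL6A2 were lowest in the mock, and COL6A3 was high in the library labelled PSPC1-CT131 alone. In Huh-7 COL6A1 stood at 33.0 and 41.7 FPKM, COL6A2 at 0.76 and 0.84 FPKM, and COL6A3 had 1 and 0 reads. No Huh-7 library therefore held all of the type VI chains at 1 FPKM. COL6A5 and COL6A6, which encode relatives of the long chain, had at most 2 and 7 reads in any library.

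**Figure D1:**
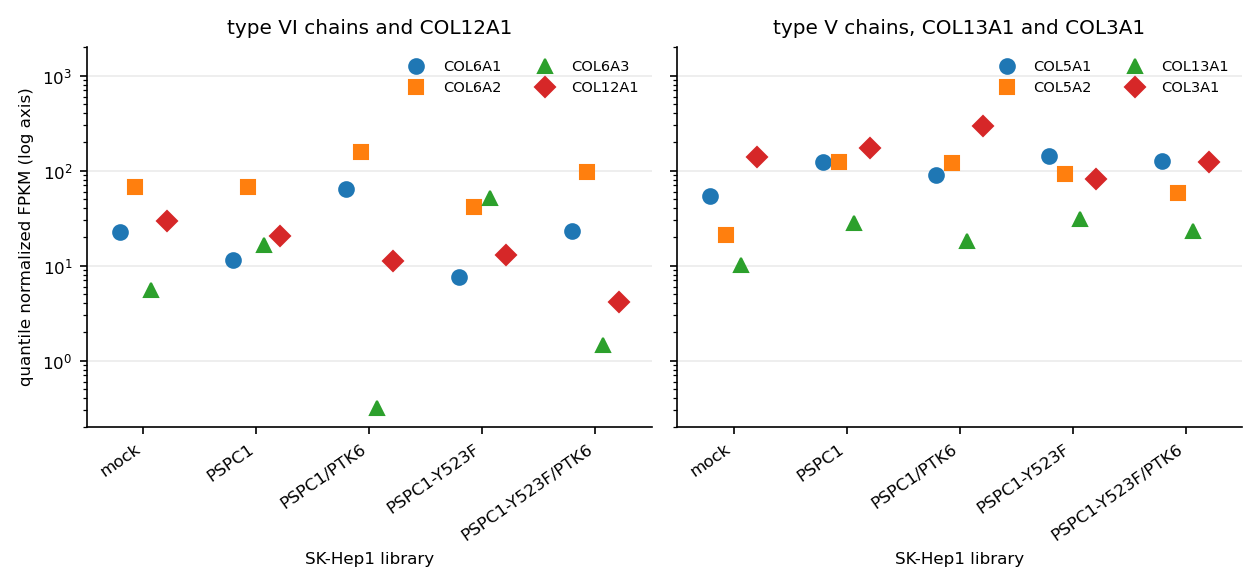
Quantile normalized FPKM (log axis) of 8 collagen genes in the 5 SK-Hep1 libraries, 1 point per gene and library. COL6A3 lies at 51.5 in the Y523F library and at 0.32 in the PSPC1/PTK6 library, where COL6A1 and COL6A2 take their lowest and highest values, and COL5A2 lies lowest in the mock.

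Type IV collagen of the common kind is built from the chains of COL4A1 and COL4A2, which lie head to head on chromosome 13. On GRCh38.p14 their RefSeq starts enclose 126 bases (chr13:110307158-110307283) with 80.2% GC, 1 GC box and 1 CCAAT box, and 34.6% and 21.1% of all promoter stretches of this length held these motifs. Unlike type VI, both varied little among the SK-Hep1 libraries. COL4A1 stood at 55.2, 58.2, 55.1, 64.9 and 57.5 FPKM, and COL4A2 at 285, 277, 292, 314 and 299.8 FPKM. The ratio of COL4A2 to COL4A1 kept between 4.76 and 5.30 there. In Mahlavu COL4A1 stood at 109, 109 and 146 FPKM and COL4A2 at 724, 903 and 918 FPKM, with a ratio of 6.29 to 8.28. On the listed length the ratio was 2.72 to 3.13 in SK-Hep1 and 2.86 to 4.07 in Mahlavu, so that the ranges of the lines overlapped. Huh-7 had 5 and 5 reads on COL4A1 and 2 and 2 on COL4A2.

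The other type IV chains, known from the basement membranes of kidney and a few other tissues, are encoded by the head-to-head pairs COL4A3/COL4A4 and COL4A5/COL4A6. COL4A5 stood at 2.11, 1.20, 2.55, 1.00 and 0.08 FPKM in SK-Hep1, the last from 2 reads, at 13.3, 27.8 and 22.8 FPKM in Mahlavu, and at 24.8 and 23.3 FPKM in Huh-7. Its partner COL4A6 was at most 0.22 FPKM in SK-Hep1, was 0.12, 0.87 and 0.26 FPKM in Mahlavu and 1.49 and 1.56 FPKM in Huh-7. The 346 bases between the listed ends of these genes thus separated a gene above 10 FPKM from one below 2 FPKM in Mahlavu and Huh-7. COL4A3 reached 0.65 FPKM and COL4A4 0.32 FPKM at most, both in the library labelled Mut-NLS-CT131, from 31 and 82 reads.

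Among the fibrillar genes, COL5A1 and COL5A2 of type V were higher in the SK-Hep1 transfectants than in the mock, while COL5A3, its remaining gene, had at most 2 reads in any SK-Hep1 library. COL5A2 (2:189031896-189179879) stood at 21.0 FPKM in the mock and at 125, 121, 91.2 and 58.2 FPKM in the transfectants, which is 5.72-, 5.56-, 4.20- and 2.69-fold higher. It was the only collagen gene of 19 tested in all 4 contrasts against the mock to be at least 2-fold higher in each, which 64 of 11911 genes (0.537%) were. These contrasts share the mock library. COL5A1 (9:134641774-134844843), whose chain joins that of COL5A2 in type V collagen, stood at 53.7, 123, 89.9, 142 and 127 FPKM, and was at least 2-fold higher in all but the library with PSPC1 and PTK6, where the difference was 1.66-fold.

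COL3A1 (2:188974320-189012746) codes for the single chain of type III collagen and lies 19149 bases from COL5A2 with no listed gene between. It stood at 139, 172, 297, 82.0 and 124 FPKM in SK-Hep1, and was at least 2-fold higher than in the mock with PSPC1 and PTK6 only. In Mahlavu both neighbours were low, COL3A1 at 0.16, 0.26 and 0.18 FPKM and COL5A2 at 0.66, 0.42 and 0.62 FPKM. In Huh-7 they parted, with COL3A1 at 0.94 and 0.84 FPKM and COL5A2 at 120.3 and 115 FPKM. COL5A1 had the reverse placing, at 300.4, 657 and 266 FPKM in Mahlavu and with 0 reads in both Huh-7 libraries, where 3 reads would have given 0.066 and 0.071 FPKM. COL5A1 and COL5A2 were thus both above 20 FPKM in SK-Hep1 only.

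Type I collagen, the main fibrous protein of scar tissue, is built from the chains of COL1A1 and COL1A2, and the order of their levels was not the same in every line. COL1A1 stood at 17.0, 8.41, 9.27, 4.87 and 9.36 FPKM in SK-Hep1, at 7.73, 7.21 and 5.37 FPKM in Mahlavu and at 12.7 and 19.7 FPKM in Huh-7. COL1A2 stood at 0.39, 1.46, 0.64, 2.45 and 0.81 FPKM in SK-Hep1, from 10 to 69 reads, at 21.7, 26.2 and 39.3 FPKM in Mahlavu and at 139 and 152 FPKM in Huh-7. COL1A1 was above COL1A2 in every SK-Hep1 library and below it in every Mahlavu and Huh-7 library, also on the listed length. COL1A1 was lowest and COL1A2 highest of the SK-Hep1 values in the library with Y523F alone, where COL1A1 was 3.06-fold lower and COL1A2 2.48-fold higher than in the mock.

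The cartilage collagen gene COL2A1 was among the 3 highest in Huh-7, at 143 and 130 FPKM from 4453 and 3669 reads. It had 1 read in Mahlavu mock and 0 in the other 7 libraries, where 3 reads would have given 0.066 to 0.084 FPKM. COL11A1, whose chain is found with that of COL2A1 in cartilage fibrils, stood at 19.8 and 19.9 FPKM in Huh-7 and at 0.16 FPKM or less elsewhere. COL11A2, the other gene of type XI, did not share this placing, at 0.42, 0.72, 0.60, 0.99 and 0.44 FPKM in SK-Hep1 and 0.36 and 0.23 FPKM in Huh-7. Among the fibril-associated genes, COL9A2, COL9A3, COL14A1 and COL22A1 were at higher levels in Huh-7 than in any other library, and COL12A1 (0.65 and 0.49 FPKM) and COL16A1 (0.94 and 1.28 FPKM) at lower ones. COL9A2 stood at 70.4 and 81.3 FPKM in Huh-7, at 7.61, 8.32, 2.52, 2.18 and 5.01 FPKM in SK-Hep1 and at 0.15 FPKM or less in Mahlavu. COL9A3 stood at 15.1 and 10.7 FPKM in Huh-7, at 2.55, 2.09, 1.37, 0.53 and 1.50 FPKM in SK-Hep1 and at 0.87, 1.60 and 0.77 FPKM in Mahlavu. COL9A1, the remaining type IX gene, was at 0.22 and 0.48 FPKM in Huh-7 and had no reads elsewhere, so no library held all type IX chains at 1 FPKM. COL14A1 at 21.3 and 15.5 FPKM and COL26A1 at 36.0 and 32.7 FPKM were also above 1 FPKM in Huh-7 alone, as were COL22A1 (4.80 and 4.59 FPKM) and COL28A1 (2.63 and 3.12 FPKM). COL27A1, a fibrillar gene, was on in every library, at 7.73, 14.6, 12.4, 21.9 and 9.74 FPKM in SK-Hep1, 24.3, 18.8 and 13.4 FPKM in Mahlavu and 85.9 and 87.7 FPKM in Huh-7.

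Against the SK-Hep1 mock, the share of collagen genes counted as different was above that of all genes tested in each contrast. With PSPC1, 4 of 19 collagen genes differed (21.1%, against 5.58% of all genes), and 25 lay below the filter on low levels. All 4 were higher, namely COL5A2, COL6A3, COL13A1 and COL5A1, where 3.38% of all genes were higher and 2.19% lower. With PSPC1 and PTK6, 8 of 19 differed (42.1%, against 8.41%). Of these, COL5A2, COL6A1, COL6A2, COL3A1 and COL18A1 were higher (all genes 5.09%) and COL6A3, COL12A1 and COL9A2 lower (all genes 3.32%). With Y523F, 11 of 21 differed (52.4%, against 5.29%), and with Y523F and PTK6, 6 of 19 (31.6%, against 5.03%). The median log2 change of the collagen genes tested was 0.07, 0.19, 0.23 and 0.06 in these contrasts, beside -0.03, -0.04, -0.01 and -0.04 for all genes. Over all genes, the log2 changes had a Spearman's rho of 0.18, -0.09, 0.25 and 0.25 with transcript GC content, as descriptions. The collagen genes tested had a median GC content of 60.3% to 61.1%, against 49.1% to 49.2% for all genes tested.

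With Y523F, the 6 higher genes were COL6A3 (7.95-fold), COL5A2, COL13A1 (2.86-fold), COL27A1 (2.62-fold), COL5A1 (2.61-fold) and COL1A2, where 2.83% of all genes were higher. The 5 lower genes were COL1A1, COL6A1 (2.76-fold), COL9A2 (2.71-fold), COL9A3 (2.32-fold) and COL12A1 (2.21-fold), where 2.46% of all genes were lower. With Y523F and PTK6, COL5A2, COL5A1 (2.35-fold) and COL13A1 (2.14-fold) were higher (all genes 3.44%), and COL12A1 (5.91-fold), COL4A5 (2.88-fold) and COL6A3 (2.69-fold) lower (all genes 1.59%). With PTK6 added to PSPC1, 4 of 19 genes differed (21.1%, against 4.96%), namely the type VI genes and COL9A2, which was 2.65-fold lower. In that contrast 3.09% of all genes were higher and 1.87% lower. With PTK6 added to Y523F, 5 of 20 differed (25%, against 5.98%), namely the type VI genes and 2 lower genes, COL12A1 (2.68-fold) and COL27A1 (2.13-fold), where 3.78% of all genes were higher and 2.2% lower. For all genes counted as different in any of these contrasts, the 95% exact interval of the read ratio excluded 1. The differences resting on fewer than 100 reads in both libraries were those of COL9A3 (43 and 8 reads) and COL1A2 (10 and 69) with Y523F and of COL4A5 (75 and 2) with Y523F and PTK6. Each of these genes was below 1 FPKM in 1 of its libraries and passed the filter through the other. COL1A2 was tested against the mock with Y523F only.

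Beside COL5A2, the genes COL5A1, COL12A1 and COL13A1 kept 1 direction against the mock and passed 2-fold in 3 of the 4 contrasts. The contrasts share the mock library, so its value enters each of them, and the same count over all genes was not made. COL12A1 (6:75084326-75206051), a fibril-associated collagen of dense connective tissue, stood at 29.6 FPKM in the SK-Hep1 mock and at 20.6, 11.1, 12.9 and 4.18 FPKM in the transfectants, all lower. COL13A1 (10:69801931-69964275), a transmembrane collagen of cell adhesion sites, stood at 10.2 FPKM in the mock and at 27.9, 18.1, 31.0 and 22.9 FPKM in the transfectants, all higher. COL18A1, the basement membrane proteoglycan whose end piece is endostatin, stood at 69.6, 119.8, 142, 124 and 120.3 FPKM and passed 2-fold with PSPC1 and PTK6 only, at 2.03-fold. In GENCODE 29, 16.4% of its exon bases are shared with SLC19A1 on the other strand, and the library kit named in the labels does not mark strand. Several genes at lower levels in SK-Hep1 stayed within 2-fold of the mock after adding 1. Among them were COL16A1 at 9.39, 5.70, 6.15, 16.6 and 8.50 FPKM and the anchoring fibril gene COL7A1 at 1.86, 2.43, 2.60, 3.27 and 2.66 FPKM. COL17A1, a collagen of epithelial hemidesmosomes, was another, at 1.81, 0.67, 0.89, 2.30 and 2.27 FPKM. Without the added 1, COL17A1 with PSPC1 and with PSPC1 and PTK6 lay more than 2-fold below the mock. COL15A1, a relative of COL18A1, stood at 1.11, 0.45, 0.20, 1.62 and 0.39 FPKM and at 0.02 FPKM or less in the other lines. COL18A1 was below 2-fold with counts scaled by TMM, with a pseudocount of 5 and with quantile normalization over all 10 libraries, and COL3A1 was below it with TMM. COL13A1 with Y523F and PTK6 was below 2-fold in 2 alternatives, at log2 changes of 0.88 and 0.99, and COL12A1 with Y523F in 1, at -0.96. A pseudocount of 5 also brought under 2-fold COL6A3 and COL9A2 with PSPC1 and PTK6, COL1A2, COL9A2 and COL9A3 with Y523F, COL4A5 and COL6A3 with Y523F and PTK6, COL9A2 with PTK6 added to PSPC1, and COL12A1 and COL27A1 with PTK6 added to Y523F.

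Between the lines, the SK-Hep1 and Mahlavu libraries did not overlap and differed by 2-fold or more in mean for 14 of 20 tested collagen genes (70%, against 27.3% of 12902 genes). The 10 genes that were higher in Mahlavu stand against 13.2% of all genes, and the 4 that were lower against 14%. The libraries of a line are different transfectants, so their range is a description and not a replicate error. In Mahlavu 10 genes were higher, led by COL6A1 (68.7-fold), COL1A2 (14.3-fold), COL6A2 (14.1-fold) and COL4A5 (9.68-fold). The others were COL7A1, COL12A1, COL16A1, COL5A1, COL4A2 and COL4A1, at 5.65-fold down to 2.05-fold. The 4 lower genes were COL3A1 (124-fold), COL5A2 (45.6-fold), COL13A1 (11.0-fold) and COL9A2 (5.00-fold). The lines overlapped for COL1A1, COL6A3, COL9A3, COL17A1, COL18A1 and COL27A1.

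In Mahlavu, the libraries labelled PSPC1-CT131 and Mut-NLS-CT131 both held more collagen RNA than the mock. The summed collagen levels were 2840.5, 5837.1 and 4606.5 FPKM in mock, PSPC1-CT131 and Mut-NLS-CT131. Past 2-fold, genes of many types differed with PSPC1-CT131, and with Mut-NLS-CT131 the share of genes was near that of all genes. With PSPC1-CT131, 10 of 17 tested genes differed (58.8%, against 6.33% of all genes). Of these, 8 were higher (all genes 3.17%) and 2 lower (all genes 3.16%). The higher genes included COL6A3 (3.93-fold) and COL7A1 (3.54-fold), the gene of the anchoring fibrils below skin epithelium, which stood at 9.96, 37.8 and 17.7 FPKM in the Mahlavu libraries. They also included COL6A1 (2.75-fold), COL6A2 (2.62-fold), COL13A1 (2.41-fold, at 0.30, 2.14 and 0.86 FPKM), COL16A1 (2.20-fold), COL5A1 (2.18-fold) and COL4A5 (2.02-fold). COL4A5 was below 2-fold in 8 of its 11 alternatives, COL16A1 in 3 of 11, COL13A1 in 2 of 9, and COL5A1, COL6A2, COL8A1 and COL12A1 in 1 each. The lower genes were COL12A1 (2.31-fold, at 111, 47.6 and 55.9 FPKM) and COL8A1 (2.12-fold, at 2.39, 0.60 and 0.83 FPKM). COL13A1 (24 and 88 reads in mock and PSPC1-CT131) passed the filter through PSPC1-CT131, and COL8A1 (158 and 25 reads) through the mock. COL13A1 was not tested with Mut-NLS-CT131, where it had 42 reads. With Mut-NLS-CT131, 1 of 15 genes differed (6.67%, against 6.42%), COL6A1 at 2.32-fold higher, while 3.16% of all genes were higher and 3.26% lower. COL6A2 (1.96-fold higher) and COL12A1 (1.97-fold lower) lay just under 2-fold. COL6A1 was below 2-fold in 3 of 11 alternatives, at log2 changes of 0.94 to 0.95.

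Set against each other, the libraries labelled PSPC1-CT131 and Mut-NLS-CT131 differed at least 2-fold in 4 of 16 collagen genes (25%, against 8.82%), all higher with PSPC1-CT131 (all genes 4.23% higher, 4.59% lower). COL16A1, a fibril-associated collagen, was 4.05-fold higher and stood at 41.9, 93.4 and 22.3 FPKM in mock, PSPC1-CT131 and Mut-NLS-CT131. COL6A3 was 3.77-fold, COL5A1 2.46-fold and COL7A1 2.07-fold higher. COL7A1 was below 2-fold in 5 of its 11 alternatives, at log2 changes of 0.53 to 1.00, and COL5A1 in 1 (0.84). COL6A1 (1.18-fold) and COL6A2 (1.34-fold) differed little between these libraries, which both lay above the mock.

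Fibroblast or stellate markers also differed from the mock in these libraries. With PSPC1-CT131, THY1 and ACTA2 were lower among 4 tested (median log2 change -0.90), where 3.16% of all genes were lower. With Mut-NLS-CT131, THY1 and PDGFRB were lower among 3 tested (median -1.09), where 3.26% of all genes were lower. Not all markers went this way. DES (0.08, 0.66 and 1.21 FPKM in mock, PSPC1-CT131 and Mut-NLS-CT131) and LUM (0.41, 0.23 and 1.03 FPKM) lay below the filter in both contrasts. DES was above the mock in both libraries and LUM with Mut-NLS-CT131 only. The part of these markers in the collagen values was not tested.

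The library labelled PSPC1-CT131 also differed from the mock in the representation of GC-rich transcripts. Across 12402 genes, its log2 changes had a Spearman's rho of 0.57 with GC content, against -0.10 for Mut-NLS-CT131 over 12412 genes, as descriptions over genes that share the libraries. The tested collagen genes had a median GC content of 61.1%, against 48.6% for all genes tested. With GC content and length taken out, 5 of the 10 genes stayed beyond 2-fold, namely COL6A3, COL7A1 and COL6A1 among the higher and COL12A1 and COL8A1 among the lower, against 4.07% of all genes. COL6A2, COL13A1, COL4A5, COL5A1 and COL16A1 then lay at log2 changes of 0.97, 0.95, 0.86, 0.73 and 0.72. Of the 4 genes that differed between PSPC1-CT131 and Mut-NLS-CT131, COL16A1 and COL6A3 stayed beyond 2-fold.

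**Figure D2:**
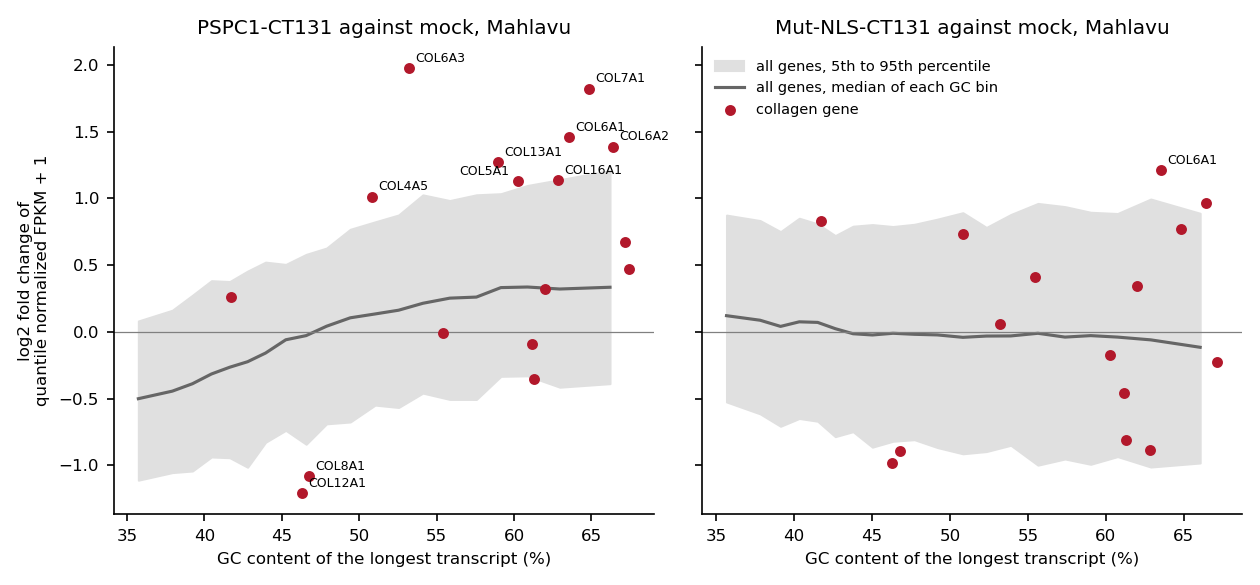
Log2 fold change against transcript GC content (percent) for the collagen genes tested in Mahlavu (points, named from 2-fold on), over the median (line) and the 5th to 95th percentile (band) of all genes in 20 GC bins. The line climbs with GC content for PSPC1-CT131 and stays near 0 for Mut-NLS-CT131.

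In Huh-7, no tested collagen gene differed by 2-fold or more after HGF (0 of 18, against 0.82% of 14262 genes, with 0.428% higher and 0.393% lower). The log2 changes ran from -0.47 for COL9A3 to 0.60 for COL1A1, and the median was 0.03 beside 0.00 for all genes. Besides COL1A1, COL7A1 (8.15 to 11.0 FPKM, log2 change 0.40) and COL6A1 (0.33) lay highest, and COL14A1 (-0.44) lay low. The 3 highest genes of the untreated library, COL2A1, COL1A2 and COL5A2, were again the highest after HGF.

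The genes that modify, process and bind collagen were followed as 3 lists of 20, 14 and 10 genes. Of the modifying and folding genes, which include the prolyl and lysyl hydroxylases and the chaperone SERPINH1, 18 were tested in each SK-Hep1 contrast. None differed 2-fold with PSPC1 (all genes 5.58%), PSPC1 and PTK6 (8.41%) or Y523F (5.29%), and PLOD2, a lysyl hydroxylase, was 2.10-fold higher with Y523F and PTK6 (5.03%). PLOD2 was also higher with PTK6 added to PSPC1 (2.27-fold) and to Y523F (2.54-fold), as 1 of 18 tested in each (all genes 3.09% and 3.78%). It stood at 25.7, 15.9, 37.3, 21.0 and 54.9 FPKM in the SK-Hep1 libraries. In Mahlavu 1 of 17 was higher with PSPC1-CT131 (all genes 3.17%), the prolyl hydroxylase subunit P4HA2 (2.33-fold), and with Mut-NLS-CT131 P4HA2 was 2.35-fold higher and the prolyl 3-hydroxylase P3H2 lower (241, 166 and 116 FPKM), 2 of 17 (6.42%).

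Of the processing and cross-linking genes, 8 or 9 of 14 were tested in each SK-Hep1 contrast. Against the mock, 1 of 9 differed with PSPC1 (all genes 5.58%), 2 of 8 with PSPC1 and PTK6 (8.41%), 1 of 8 with Y523F (5.29%) and 5 of 8 with Y523F and PTK6 (5.03%). PXDN, the peroxidase that cross-links type IV collagen, stood at 147, 6.69, 81.2, 8.11 and 40.6 FPKM, and was at least 2-fold lower than in the mock in all but the PSPC1/PTK6 library. COL4A1 and COL4A2, whose products it links, differed by less than 2-fold from the mock in the same libraries. With PTK6 added to PSPC1, 1 of 9 tested genes of this list was higher (all genes 3.09%), PXDN at 10.7-fold. With PTK6 added to Y523F, 4 of 9 were higher (all genes 3.78%), namely PXDN (4.56-fold) and the lysyl oxidase genes LOX, LOXL4 and LOXL1. The lysyl oxidase gene LOX stood at 5.55, 11.9, 16.2, 5.04 and 30.0 FPKM. LOX and its relative LOXL4 were at least 2-fold higher than in the mock in both libraries with PTK6. With PSPC1 alone LOX lay just under that, at 1.97-fold higher. BMP1, the procollagen C-proteinase, and LOXL1 were at least 2-fold higher than in the mock with Y523F and PTK6 only. In Mahlavu 1 of 7 tested genes differed with PSPC1-CT131 (all genes 6.33%), PCOLCE, an enhancer of BMP1 (6.49, 30.9 and 13.0 FPKM), and none with Mut-NLS-CT131 (all genes 6.42%).

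Of the 10 receptor genes, 2 of 7 tested differed from the mock with PSPC1 (all genes 5.58%), 2 of 6 with PSPC1 and PTK6 (8.41%), 1 of 8 with Y523F (5.29%) and 1 of 7 with Y523F and PTK6 (5.03%), all lower. ITGA1, the alpha chain of a collagen-binding integrin, stood at 15.9 FPKM in the mock and at 1.09, 2.89, 0.83 and 0.40 FPKM in the transfectants, and was at least 4.34-fold lower in all of them. DDR2, a receptor tyrosine kinase for fibrillar collagen, was at least 2-fold lower with PSPC1 and with PSPC1 and PTK6 (2.80, 0.85, 0.43, 1.03 and 0.96 FPKM). It was also lower, by less than 2-fold, with Y523F (1.87-fold) and with Y523F and PTK6. In Mahlavu ITGA2 (3.24, 10.1 and 5.13 FPKM) and ITGA11 (6.51, 19.9 and 6.12 FPKM) were higher with PSPC1-CT131 among 7 tested (all genes 3.17%), and none of 7 differed with Mut-NLS-CT131 (6.42%). With PTK6 added to Y523F, 1 of 5 tested receptor genes was higher (all genes 3.78%), the endocytic collagen receptor MRC2 (45.3, 41.4, 63.1, 29.3 and 80.7 FPKM). With HGF no gene of the 3 lists differed 2-fold among 18, 8 and 5 tested, where 0.82% of all genes did.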

How the data were processed

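RNA-Seq of 10 libraries was analysed, 1 per condition, as described in the report. The authors mapped reads and counted them per gene, and their read counts were deposited for 8 libraries. The deposited FPKM values divide those counts by gene length and by the reads on genes, and the authors quantile normalized FPKM for their own comparisons. The submitters' processing notes name TopHat2 2.0, HTSeq 0.6.1, edgeR and GRCh38.p12, whereas the study's methods name build hg18. The positions printed are those the files list, and 97.5% of the genes shared with GENCODE 29 have the same ones there. The sources differ on whether poly-T selection or rRNA depletion was used. For Huh-7, whole reads were recovered from the deposited FPKM for 100% of values (tolerance 0.01).

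For the text, deposited FPKM were quantile normalized (Python 3.11.15, numpy 2.4.6, pandas 2.3.3) and compared as log2(FPKM + 1), with a minimum mean of 1 FPKM and a threshold of 2-fold. Conditions have 1 library each, and no test across genes was run, also not between the lines or over the PTK6 pairs. Intervals of read ratios are exact 95% binomial intervals. Reads were not collapsed by molecular identifiers, so intervals and the limit set by 3 reads cover counting error only. GC content is that of the longest GENCODE 29 transcript. TMM factors came from edgeR 4.0.16. The quantile normalization and the fold change step were tested on simulated counts that held counting error only. The other steps were not tested in this way. Genes named are the members at or past 2-fold, members with the highest level in a line, partner chains of 1 collagen type, and genes of the fixed lists past 2-fold, with others added after their values were seen. The members and lists were chosen with earlier results of these data known. Alternatives changed the pseudocount, the normalization, the filter, the length and the GC content. No columns of samples were left unused.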

Additional observations from a re-analysis of the deposited data

How the results depend on the processing

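No comparison of a named gene turned its direction under any of the alternatives run. A pseudocount of 5 lowered the number of collagen genes at or past 2-fold from 8 to 5 with PSPC1 and PTK6, from 11 to 7 with Y523F, from 6 to 3 with Y523F and PTK6, and from 5 to 3 with PTK6 added to Y523F. A pseudocount of 0.1 raised the last count to 9 and that with Mut-NLS-CT131 from 1 to 2. The Mut-NLS-CT131 count was 0 with quantile normalization within each line, 3 with counts scaled by TMM, 2 with the trend on transcript length and GC removed, and 2 with FPKM on the listed gene length, an alternative chosen after seeing the data. With the trend on length and GC removed, the count with PSPC1-CT131 was 5 instead of 10, that between PSPC1-CT131 and Mut-NLS-CT131 was 2 instead of 4, and with PSPC1 COL1A1 and COL6A1 joined as lower genes, making 6 instead of 4. The number of genes apart between SK-Hep1 and Mahlavu was 12 to 15 across alternatives and 13 to 15 when each library was left out in turn. COL18A1 joined without SK-Hep1 mock or without PSPC1-CT131, and COL4A1 was lost without Mut-NLS-CT131. The causes of these shifts, other than the change of setting itself, were not tested. No paired analysis was possible because the groups compared share only 1 replicate number, with 1 library each. Depth limits the genes under 1 FPKM, where a few reads make up a value, and no setting replaces the missing replicates.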

Other observations

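Of the pseudogenes, antisense and divergent transcripts that carry a COL name, which the rule left out, COL6A4P1 stood out in Huh-7. This type VI pseudogene had 94 and 83 reads there (2.76 and 2.55 FPKM) and at most 3 reads in each of the other libraries, although COL6A3, COL6A5 and COL6A6 had 0 to 7 reads in Huh-7. COL6A2-DT, the transcript that starts opposite COL6A2, had 7, 19 and 5 reads in Mahlavu mock, PSPC1-CT131 and Mut-NLS-CT131.

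The exons of 2 further collagen genes overlap those of a protein-coding gene on the other strand in GENCODE 29. COL9A3 shares 0.930% of its exon bases with TCFL5, which had up to 1431 reads, and COL19A1 shares 0.822% with LMBRD1, which had up to 1031. Reads in shared bases cannot be told apart without strand, and their part in the values of COL9A3 and COL19A1 was not tested.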
